A study of Mus with 2 samples.

Results

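The genes described here are 8 through which macrophages read the Fc part of antibodies: Fcgr1, Fcgr3, Fcgr4, Fcgr2b, Fcgrt, Fcer1g, Tyrobp and Syk. They were chosen by name, as the probes whose transcript accession belongs to one of these symbols. All 8 were measured, among 13533 named genes measured in all. The samples were bone marrow-derived macrophages (BMDMs) from male C57BL6/J mice, grown for 7 d in M-CSF at 10 ng/mL. Both cultures then received IL-4 at 10 ng/mL, the cytokine that sets M2 conditions, for 24 h. One culture was given the solvent DMSO alone and the other 10 µM of GW4064 in DMSO, a synthetic agonist of the farnesoid X receptor (FXR), which is a nuclear receptor for bile acids. Total RNA of each culture was read on 1 Agilent 1-colour array, and the comparison asked how adding GW4064 under M2 conditions altered gene expression. How many mice gave cells to each culture was not given in the sources used here, and the free-text description of the GW4064 sample names DMSO while all its other labels say GW4064.

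Fc gamma receptors bind IgG that coats a particle or an immune complex and help to decide whether the macrophage engulfs it and releases inflammatory mediators. In mice, Fcgr1 (FcγRI), Fcgr3 (FcγRIII) and Fcgr4 (FcγRIV) are activating receptors that signal through the ITAM motif of the common gamma chain Fcer1g, which Src family kinases phosphorylate and the kinase Syk then binds. Fcgr2b (FcγRIIB) carries an inhibitory ITIM motif and recruits the lipid phosphatase SHIP1 (Inpp5d), so that the balance of activating receptors to Fcgr2b sets the threshold for a response to IgG.

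Each level below is the processed signal of a spot, its brightness after background correction. A difference is the log2 signal on the GW4064 array minus that on the DMSO array, after the 75th percentile of the same array was subtracted. This percentile was 1209 for DMSO and 1265 for GW4064, so that a gene with equal raw signals has a difference slightly below 0. Signals of different genes come from different probes and were not set against each other. With 1 array per condition there was no replicate and no test was made. Well above background were 57.4% of the probes under DMSO and 58.5% under GW4064, and 21707 probes were so on both arrays. Patches of the slide held many discordant dim spots, and 16.5% of the spots lay in such damaged areas, with 2 or more other spots within 300 µm that differed 8-fold or more between the arrays. In bulk RNA, fewer cells of a type and less RNA per cell cannot be told apart.

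The Fc receptor genes as a group were level between the arrays, with Fcgr4 the exception on the higher side and Fcgrt and Fcgr2b on the lower side. All 8 were well above background on both arrays, and none of their spots was saturated or marked as faulty. The median difference of the 8 genes was 0.014, against 0.0069 over all 13533 genes. They divided evenly, with 4 higher and 4 lower on the GW4064 array, while 51.6% of all genes were higher. None of the 8 was 2-fold or more apart. Of all genes, 2.04% lay 2-fold or more above their DMSO level and 2.71% as far below it. At 1.5-fold, 1 gene, Fcgr4, was higher and 0 were lower, where 4.39% and 5.56% of all genes were. Within 0.15 of 0 lay 5 of the 8, or 62.5%, against 56.6% of all genes.

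**Figure D1:**
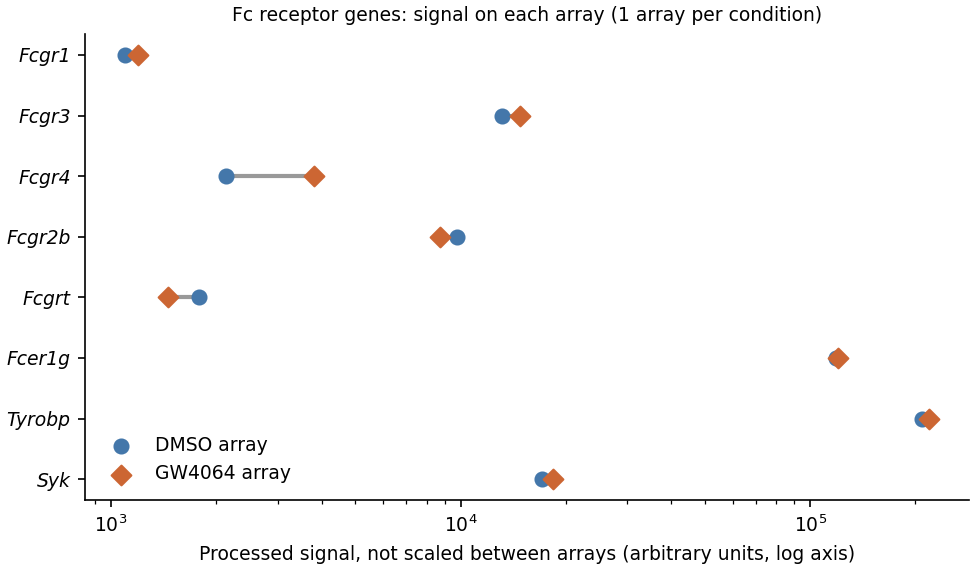
Processed signal (log axis) of the 8 Fc receptor genes on the DMSO array and the GW4064 array, 1 point per gene and array. Fcgr4 stood at 2127 with DMSO and 3803 with GW4064, and levels of different genes are not comparable because their probes differ.

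Among the activating receptors, Fcgr4, which binds IgG2a and IgG2b, had a signal of 2127 with DMSO and 3803 with GW4064. The difference was 0.77 on the log2 scale, or 1.71-fold higher with GW4064. Of the 10004 probes with signals of at least 1000 on both arrays, 63 (0.630%) were as high or higher, and 97 (0.970%) were as far from 0 in either direction. Over all measured genes, Fcgr4 was above 97.0%. It was higher in each of the 10 alternative ways of processing that gave it a value, at 0.61 to 0.77. Those that act only on marked spots, dim probes or the choice among probes could not change it. Leaving out damaged areas, the alternative that bears on its spot, gave it no value.

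The Fcgr4 value rests on 1 spot, and that spot lay in a damaged area. Within 300 µm of it, 3 spots differed 8-fold or more, 1 brighter on the GW4064 array and 2 brighter on the DMSO array, with brighter signals of 47.9 to 182. The 17 bright spots in the same radius differed by -0.37 to 0.16, with a median of -0.065, so that the discordant spots nearby were dim ones and no bright neighbour came near 0.77. The part of the slide damage in the Fcgr4 value was not tested.

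Fcgr3, the low-affinity receptor for immune complexes, had a signal of 13091 with DMSO and 14825 with GW4064. This is a difference of 0.11, or 1.08-fold. Its spot also lay in a damaged area. The measured spots in the 5 rows and columns around it had a median difference of 0.13, and the 18 bright spots within 300 µm one of 0.12, about that of Fcgr3 itself. The part of the slide in the Fcgr3 value was not tested. Fcgr1, the high-affinity receptor for IgG2a, had 1099 and 1195, a difference of 0.055 or 1.04-fold. Its surroundings held 0 discordant spots. Both of these receptors were lower rather than higher with spike-in RNA as the common scale of the arrays, at -0.052 for Fcgr3 and -0.11 for Fcgr1, while Fcgr4 kept its direction there. Fcgr4 thus stood apart from the other activating receptors, by 0.66 from Fcgr3 and by 0.72 from Fcgr1, and these gaps do not depend on how the arrays are centred.

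The inhibitory receptor Fcgr2b was lower on the GW4064 array, and it was the only one of the 8 with several spots. Its 10 copies ran from 8827 to 10394 with a median of 9842 with DMSO, and from 8124 to 9234 with a median of 8682 on the GW4064 array. Before scaling, the copies of the arrays overlapped, with 4 copies on the GW4064 array above the lowest DMSO copy. The 75th percentile was higher on the GW4064 array, so that scaling lowers its copies against those under DMSO. Averaged over copies, the signals were 9776 ± 547 (SD over 10 copies) on the DMSO array and 8753 ± 351 (SD over 10 copies) on the GW4064 array. Copies are spots of 1 hybridised RNA, so that this SD holds the error of the array and nothing of the spread between cultures.

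Taken copy by copy at the same position, the Fcgr2b difference was -0.22 ± 0.036 (SD over 10 copies), with a range of -0.27 to -0.15, and 10 of 10 copies were below 0. This is 1.17-fold lower with GW4064. Of 133 probes printed 10 times with signals of at least 1000, 14 (10.5%) had a mean at or below that of Fcgr2b, and 56 had all their copies on one side of 0. The SD between copies of Fcgr2b was below the median of 0.071 over those probes. A difference of this size is thus larger than the spot error and not rare among bright probes, of which 6.58% were as low or lower. Fcgr2b was lower in each of 11 alternatives, at -0.39 to -0.22, but those on marked spots, dim probes or the choice among probes could not change it.

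**Figure D2:**
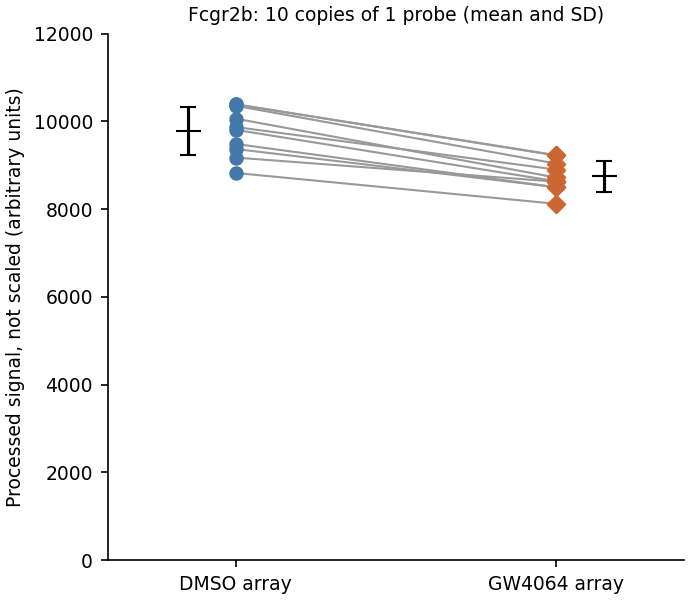
Signals of the 10 copies of the Fcgr2b probe on the DMSO array and the GW4064 array, with lines joining copies at the same position of the array and bars for the mean and SD over copies. The signals are not scaled between the arrays. Each line runs downward from DMSO to GW4064, although the unscaled ranges of 8827 to 10394 and 8124 to 9234 overlap.

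Relative to each activating receptor, Fcgr2b was lower on the GW4064 array. The Fcgr4 difference minus the Fcgr2b difference was 1.0 on the log2 scale, so that the ratio of the Fcgr4 signal to the Fcgr2b signal was 2.0-fold higher on the GW4064 array, with 0.93 to 1.02 over the alternatives. For Fcgr3 and Fcgr1 the same gap was 0.34 and 0.28. These are close to 0.29, the 95th percentile of the gap between 2 bright probes of a gene, and so near the limit of precision. In each of the 3 pairs of an activating receptor with Fcgr2b the gap was above 0 in every alternative that gave a value. The alternatives use the same probes, so that this sign says little about probe error. The gap does not change with the centring of the arrays, but Fcgr4, Fcgr3 and Fcgr1 each contribute 1 spot to it.

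Fcgrt, the neonatal Fc receptor, returns endocytosed IgG to the surface and was the lowest of the 8. It had a signal of 1781 with DMSO and 1450 with GW4064, a difference of -0.36 or 1.29-fold lower. Among bright probes 2.55% were as low or lower. It was lower in each of 11 alternatives, at -0.53 to -0.26, of which several could not change the value of a bright gene with 1 unmarked probe. Its partner chain B2m, beta-2 microglobulin, had 115574 and 119302, a difference of -0.020. The gap between the partners was 0.34, and the lower Fcgrt value had no counterpart in B2m.

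Fcer1g, the gamma chain that all 3 activating receptors need, had a signal of 118647 with DMSO and 120379 with GW4064, a difference of -0.045. Tyrobp (DAP12), an ITAM adaptor that resembles Fcer1g and serves receptors such as Trem2, had 209471 and 218097, a difference of -0.0075. The tyrosine kinase Syk, which binds both phosphorylated chains, had 17141 and 18381, a difference of 0.035. All 3 lay within 0.05 of 0, and the chains differed from each other by 0.037. The Fcgr4 difference therefore exceeded that of its own signalling chain by 0.82. Syk changed sign under quantile normalization as well as with the spike-in RNA, and Tyrobp was above 0 in 1 of 10 alternatives, so that no direction is given for either.

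The error of a spot gives these values a scale. Feature Extraction assigned the member spots an error of 10.0% whatever their signal, which makes 0.20 on the log2 scale for a difference between single spots. The measured SD of a difference between copies of a probe was smaller, with a median of 0.071 over 133 bright probes. Across 955 genes with 2 bright probes, the probes of a gene lay 0.080 apart in the median and 0.29 apart at the 95th percentile. Fcgr4 and Fcgrt were farther from 0 than the single-spot error and than this percentile. With normexp, however, Fcgrt was at -0.26, which is nearer to 0 than the percentile. Fcgr1, Fcgr3, Fcer1g, Tyrobp and Syk lay within the assigned single-spot error and within the 0.29 between probes of a gene, so that no difference was detectable at this precision. Fcgr2b had its own error from 10 copies. At -0.22 it was nearer to 0 than the 0.29 between probes of a gene, an error that copies of 1 probe cannot show. None of these errors holds the spread between cultures, which is unknown.

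**Figure D3:**
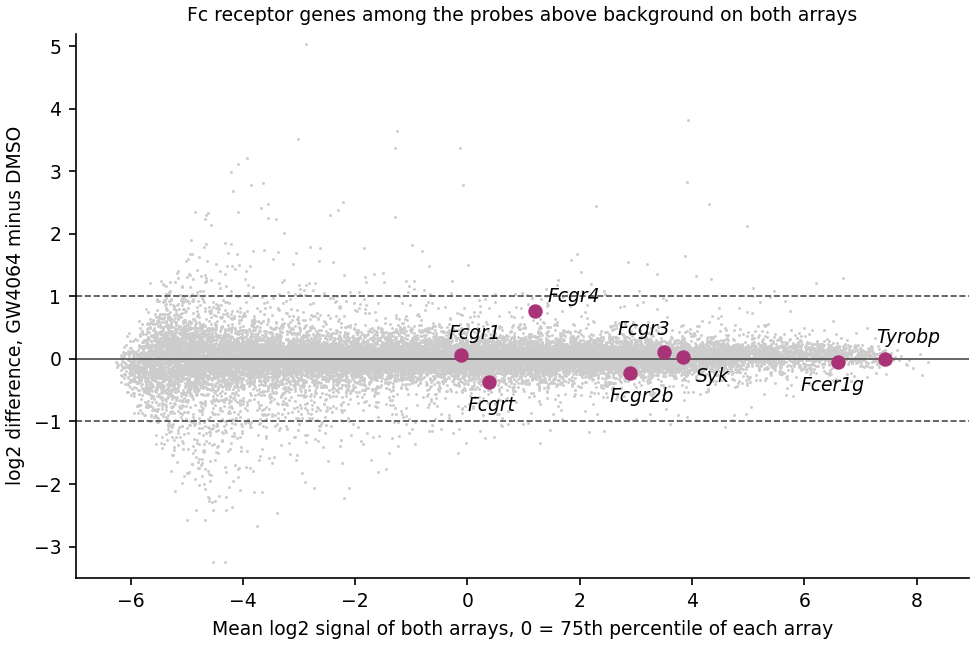
Difference (log2, GW4064 minus DMSO) against the mean log2 signal of both arrays for the 21707 probes above background on both, with the 8 Fc receptor genes in colour and dashed lines at 2-fold. Fcgr4 at 0.77 stands near the upper edge of the probes of like signal, Fcgrt at -0.36 and Fcgr2b at -0.22 lie below 0, and the other 5 lie in the middle of the cloud.

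**Figure D4:**
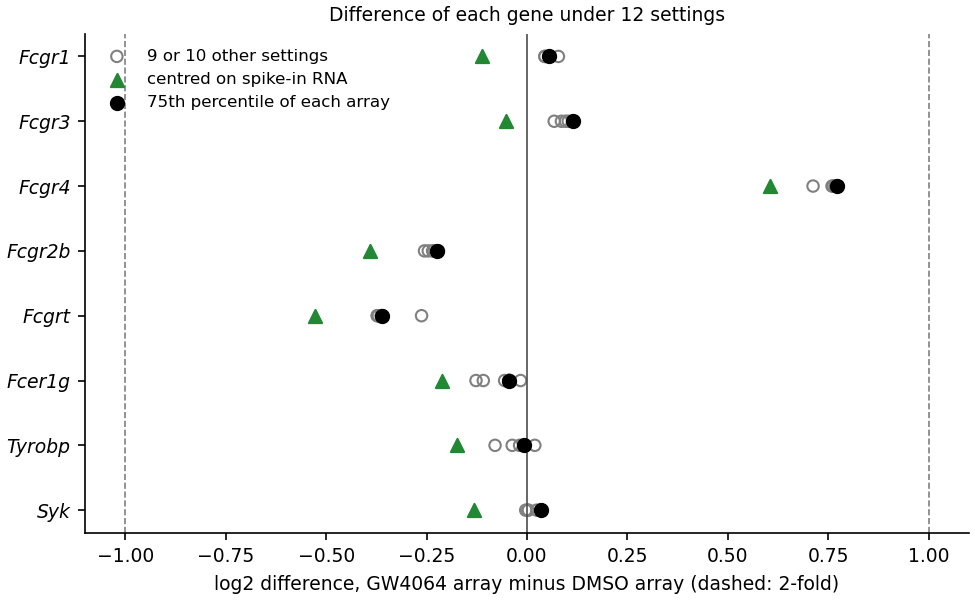
Difference of each Fc receptor gene under the main processing and under each alternative that gave a value (log2, GW4064 minus DMSO). Centring on the spike-in RNA lowered every gene by 0.17, and under it Fcgr4 was the only one of the 8 above 0.

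The cultures were checked against markers of macrophages and of the other cells that carry Fc receptors. Of the macrophage markers, 9 were measured, with 4 higher and 5 lower, at differences of -0.42 to 0.13 and summed signals of 386056 with DMSO and 363331 with GW4064. Neutrophils share Fcgr3 and Fcgr4 with macrophages, and 7 of 8 measured neutrophil markers were lower, with a median of -0.62 and summed signals of 14006 and 9099. NK cells carry Fcgr3, and their markers Ncr1, Gzma, Klrd1, Klre1 and Eomes were not above background on either array. The 3 measured had sums of 3554 and 3237 with none higher. Most of these sums is 1 probe of Nkg7, at 3197 and 3066. The other Nkg7 probe, at 3.30 and 3.12, was not above background on either array, so that its probes disagree on whether it is expressed. Klrb1c was lowest at -2.06, in part a bound, and at -0.82 with normexp. B cells carry Fcgr2b, and their markers Cd79a and Pax5 were not above background, with sums of 381 and 318 over the 3 measured.

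Mast cells and basophils carry the IgE receptor, whose alpha and beta chains Fcer1a and Ms4a2 were not above background on either array. The 4 of their markers that were measured summed to 193 and 226. Of the T cell markers 4 were measured, with sums of 1735 and 1685, and of the dendritic cell markers 3, with sums of 92.0 and 172. The higher dendritic cell sum comes mostly from Flt3, at 10.5 (not well above background) and 81.5 from a spot in a damaged area. Zbtb46 was also higher, at 0.44, in part a bound, and at 0.097 with normexp, while Ccr7 was lower at -0.60. Stromal and endothelial cells use Fcgrt, and 8 of 9 measured stromal markers were lower, with a median of -0.58 and sums of 14753 and 8503. The part of neutrophils in the Fcgr3 and Fcgr4 values, and that of stromal cells in the Fcgrt value, was not tested. Fcgr4 was higher on the array where the neutrophil markers were lower, and Fcgrt was lower on the array where the stromal markers were lower.

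The other Fc receptors and related chains were mostly not detected. Of 15 genes, 9 were not above background on either array, among them the IgE receptor Fcer2a and the receptors Fcrl1, Fcrl6, Fcrla, Fcrlb and Fcamr. Of the 6 measured, 2 were higher and 4 lower, with a median of -0.28. Fcrl5, named after its values had been seen, counts as lower only through a dim probe at -0.61, while its bright probe was at 0.12. Fcmr, the receptor for IgM, had a signal of 38.1 on the DMSO array and was not well above background on the GW4064 array, so that with this background correction it was at least 2.64-fold lower there. With the normexp background correction its difference was -0.36, which is not 2-fold, so that the bound depends on the correction. Pigr, which carries polymeric IgA and IgM across epithelia, had 14501 and 10158, a difference of -0.58, from a spot in a damaged area. Another Pigr probe, at 4.04 and 3.71, was not above background on either array, so that the probes of Pigr disagree on whether it is expressed. Trim21, a cytosolic receptor for antibody on viruses and bacteria, had 817 and 1051, a difference of 0.30. Hcst (DAP10), an adaptor that works beside Tyrobp, had 10705 and 11467, a difference of 0.034.

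The kinases and activators downstream of the receptors were close to level. Of 32 genes, 31 were measured, with 12 higher, 19 lower and a median of -0.079. The only one 2-fold apart was Src, with 15.7 and 38.2, a difference of 1.21. The DMSO value of Src equals the lowest signal called above background on that array, and with normexp the difference was 0.45. The adaptor Lat, at 0.51 from a spot in a damaged area, was the next highest. The exchange factors Vav3 and Sos1, both at -0.44, were lowest, and with normexp Vav3 was at -0.49 and the dimmer Sos1 at -0.026. Of the Src family kinases of myeloid cells, Lyn at -0.0098 and Fgr at 0.36 are named for their role after their values had been seen.

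Of 18 inhibitors of this signalling, 17 were measured, with 7 higher and 10 lower, none 2-fold apart and a median of -0.021. The lowest was the phosphatase Ptpn22 at -0.32. Next came Inpp5d, which encodes the SHIP1 that Fcgr2b recruits, with a signal of 10429 with DMSO and 9202 with GW4064. Its difference of -0.25 is of the size and direction of that of Fcgr2b, each measured by a probe of its own. The highest were the ubiquitin ligase Cblb at 0.12 and Inppl1 (SHIP2), a relative of Inpp5d, at 0.17.

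Of 32 genes of the phagocytic cup, the actin structure that closes around an IgG-coated particle, 31 were measured, with 11 higher, 20 lower and a median of -0.075. Cyfip1, a subunit of the WAVE complex that turns on actin branching at the membrane, had a signal of 8642 with DMSO and 18129 with GW4064. This is a difference of 1.0 or 2.0-fold higher, from 1 spot outside the damaged areas. It was below 2-fold under quantile, median, loess and spike-in centring, at 0.84 under the last, so that the 2-fold call depends on the centring. The actin-severing protein Scin was the next highest, at a bound of 0.50 from signals of 19.3 (not well above background) and 28.6, and at 0 with normexp, so that no direction is given for it. Its relative Gsn at -0.39 and the phospholipase Pld2 at -0.29 were lowest.

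Receptors other than Fc receptors share Fcer1g and Tyrobp. Of 19 such activating receptors, 16 were measured, with 5 higher, 11 lower and a median of -0.051. Trem2, named for its role after its value had been seen, had 194857 and 192644, a difference of -0.082. Pilrb1, which signals through Tyrobp, had 106 and 381, a difference of 1.78 or 3.43-fold higher, and was 1.22 with the normexp correction. Clec4e (Mincle), which signals through Fcer1g and senses mycobacterial glycolipid, had 110 and 261, a difference of 1.19, from a spot in a damaged area and at 0.68 with normexp. Clec4n (Dectin-2), another partner of Fcer1g, was at -0.56. Gp6 had 23.2 and, not well above background, 13.4, a bound of -0.68 that was -0.25 with normexp.

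Inhibitory receptors with ITIMs work as Fcgr2b does. Of 18, 16 were measured, with 7 higher, 9 lower and a median of -0.034. Pilra, the inhibitory counterpart of Pilrb1, had signals of 2236 and 5483 averaged over 3 probes, and each probe was higher, at 1.20 to 1.26. Its mean difference was 1.24 or 2.36-fold higher, outside the damaged areas. Cd300lf was the next highest at 0.84, with 3 probes at 0.58 to 1.02 that all lay in damaged areas, and was at 0.49 with normexp. Cd33 at -0.72 and Clec4a2 at -0.56 were lowest, with -0.54 and -0.20 under normexp. The other paired receptors, named for that pairing after their values had been seen, did not stand as high, with inhibitory Sirpa at 0.038 beside activating Sirpb1a at 0.28, and inhibitory Pirb at -0.033 beside activating Pira2 at -0.12.

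Over the 6 lists of related genes together, 6 of 117 measured genes (5.13%) were 2-fold or more apart, a share near the 4.75% of all genes.

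**Figure D5:**
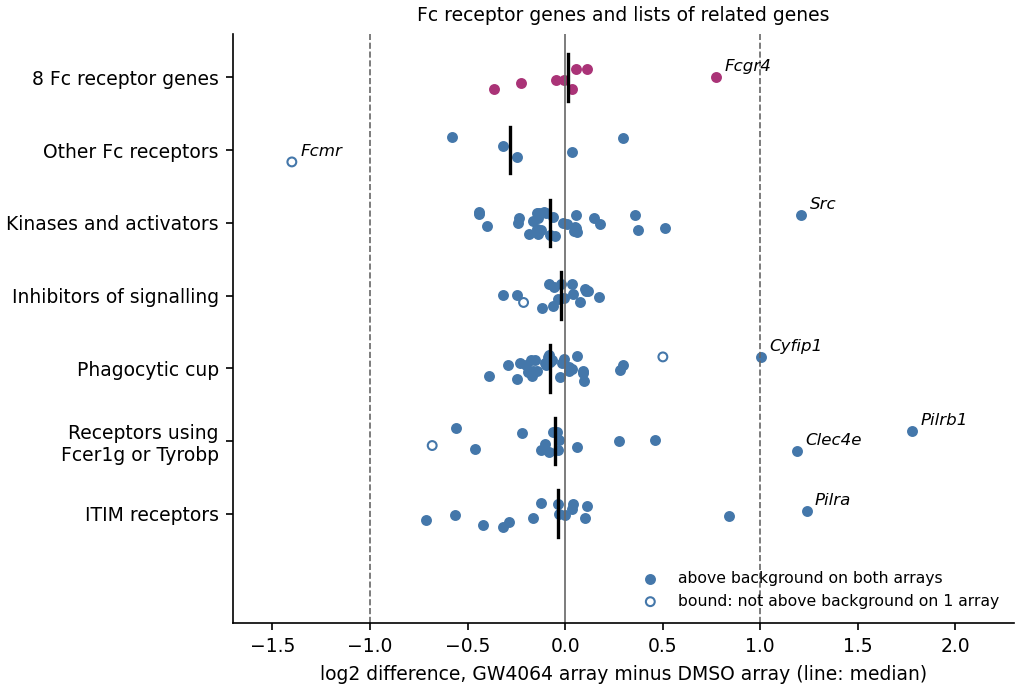
Difference (log2, GW4064 minus DMSO) of each measured gene in the Fc receptor group and in 6 lists of related genes, with a thick line at each median, dashed lines at 2-fold and open points where a gene was above background on 1 array only. The medians lie between -0.28 and 0.014, and the genes 2-fold or more apart are Fcmr on the lower side and Src, Cyfip1, Pilrb1, Clec4e and Pilra on the higher side.

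In the mouse genome Fcgr2b, Fcgr4 and Fcgr3 follow each other on chromosome 1 in this order, with Fcer1g farther along in the same direction. These neighbours had differences of -0.22, 0.77, 0.11 and -0.045, so that the order of the genes did not follow the order of the differences. Between Fcgr3 and Fcer1g, the measured genes Cfap126, Sdhc, Pcp4l1, Tomm40l and Apoa2 had differences of -0.51, 0.23, 0.23, 0.32 and -0.072.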

How the data were processed

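For each array the authors deposited a scanner file, in which Agilent Feature Extraction 10.7.1.1 gives the intensity of each of 43020 spots after background correction, and a log2 table of both arrays whose normalization was not given in the sources used here. Apart from a constant of 0.0022, the differences in that deposited log2 table equalled those computed here for 39200 probes. The intensity was taken as log2 minus the 75th percentile over non-control spots of each array. Marked spots were left out, copies of a probe were averaged, and a gene was the mean of its probes that passed the background call on either array, with a bound on the other array at the higher of the probe's own signal and the lowest signal called above background (15.7 and 15.1). No probe was saturated. Symbols came from RefSeq accessions of GRCm38.p6. Coordinates are left out because the array design uses another build.

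There was no replicate, so no test was made, and precision is limited by the number of arrays. Differences are described by size, with 2-fold as the call. The genes named were the 8 Fc receptor genes, B2m, and per related list every gene 2-fold or more apart with the 2 highest and 2 lowest. Other names are marked in the text or are cell type markers. The members and lists were chosen with earlier results of these data known. The steps were tested on simulated data of GW4064 against DMSO with 39228 probes, where 200 of 200 changed probes were recovered. The changes were planted well beyond the 2-fold call, with little noise and not in dim probes. Recovery was thus close to assured and checks the steps only. Recovery of differences below 2-fold, the size of those of the 8 Fc receptor genes, was not tested. Recovery at spots in damaged areas was not tested either. The 11 alternatives were quantile normalization, the median of bright probes or spike-in RNA as the centre, loess (span 0.3), the deposited table, normexp (offset 50) on the median intensity, keeping marked spots, no filter on dim probes, probes above background on both arrays only, the brightest probe of a gene, and leaving out damaged areas. A threshold of 1.5-fold was also used. Python 3.11.15, numpy 2.4.6, pandas 2.3.3, statsmodels 0.14.6, R 4.3.3 and limma 3.58.1 were used.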

Additional observations from a re-analysis of the deposited data

How the results depend on the processing

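The count of Fc receptor genes 2-fold or more apart was 0 under each of the 11 alternatives and 1 (Fcgr4) at a 1.5-fold threshold. The number higher on the GW4064 array went from 4 to 1 with spike-in centring, which also took the median difference from 0.014 to -0.15 through a uniform shift of -0.17, and to 2 of 5 measured genes without damaged areas, where Fcgr3, Fcgr4 and Tyrobp have no spot. The number of related genes 2-fold or more apart, among 117 measured, went from 6 (5.13%, against 4.75% of all genes) to 3 with normexp, which shrinks differences of dim probes. In the other settings the median was -0.045 to 0.016 and this number 5 to 9. Of 85 recomputed values of the 8 genes, 10 moved by more than the typical SD between copies of a probe, 8 of them with the spike-in RNA. Each of the 8 genes has 1 bright probe without marked spots. Alternatives that act only on marked spots, dim probes or the choice among probes therefore could not move them, and the 85 values include these. Which centring is nearest to the RNA content of the cells was not tested. No paired analysis was possible because a single array stood for either condition, and for the same reason no replicate could be left out.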
